A study of Mus musculus with 36 samples.

Results

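The transcripts described here encode 10 enzymes that make serine, pass its one-carbon unit through folate in mitochondria and cytosol, or start proline synthesis. They were found by gene symbol among the 25626 genes of the deposited table, as Phgdh, Psat1, Psph, Shmt1, Shmt2, Mthfd2, Mthfd1l, Aldh1l2, Mthfd1 and Aldh18a1, and all 10 passed the filter on low values (at least 10 in at least 6 libraries), as did 16275 genes in all. RNA from the whole hearts of 36 mice was sequenced in 6 groups of 6, 1 library per heart. Mice of 2 genotype labels, Control (Con) and cSirt4-Tg, the latter named for the mitochondrial sirtuin Sirt4, underwent either a sham operation or transverse aortic constriction (TAC), an operation that loads the left ventricle by narrowing the aorta. All sham mice and 1 TAC group of each genotype carry the label vehicle, and the other TAC group of each genotype (TAC-MQ) received MitoQ, a quinone antioxidant targeted to mitochondria. Below, the 6 groups are called Con-Sham and cSirt4-Tg-Sham, Con-TAC and cSirt4-Tg-TAC, and, with MitoQ, Con-TAC-MQ together with cSirt4-Tg-TAC-MQ. The stated purpose was to find pathways through which mitochondrial reactive oxygen species could worsen cardiomyopathy in cSirt4-Tg mice. The promoter that drives the transgene, the strain, sex and age of the mice, the time after TAC and the dose of MitoQ are not stated in the sources used here.

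Serine synthesis starts from a glycolytic intermediate: Phgdh oxidises it, Psat1 adds the amino group and Psph removes the phosphate. The hydroxymethyltransferases Shmt1 (cytosol) and Shmt2 (mitochondria) then cleave serine to glycine and hand its carbon to tetrahydrofolate; in mitochondria Mthfd2 oxidises that carbon, Mthfd1l releases it as formate for purine synthesis, and Aldh1l2 instead burns it to CO2 with formation of NADPH. Several of these genes are known targets of ATF4, the transcription factor of the integrated stress response, and Mthfd2 is known as an enzyme of embryonic and dividing cells with low levels in most adult tissues.

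The 250 bases upstream of the annotated starts were read for 9 of the 10 genes from RefSeq (GRCm38.p6). Those of Mthfd2 (chr6:83317605-83317854, minus strand) and Aldh18a1 (chr19:40588464-40588713, minus strand) are shown because the levels of these 2 genes moved together more closely than those of any other pair of the 10. Both run 5′ to 3′ along the gene, and capitals mark matches on either strand to 4 sequences: TGATGNAA (a C/EBP-ATF composite site of the kind ATF4 binds), the E-box CACGTG, the GC box GGGCGG and the CCAAT box.
Mthfd2: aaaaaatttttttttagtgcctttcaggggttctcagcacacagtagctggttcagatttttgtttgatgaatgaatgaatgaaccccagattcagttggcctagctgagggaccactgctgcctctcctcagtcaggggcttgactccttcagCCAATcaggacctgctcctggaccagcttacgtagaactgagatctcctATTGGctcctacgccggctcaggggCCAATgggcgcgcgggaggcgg
Aldh18a1: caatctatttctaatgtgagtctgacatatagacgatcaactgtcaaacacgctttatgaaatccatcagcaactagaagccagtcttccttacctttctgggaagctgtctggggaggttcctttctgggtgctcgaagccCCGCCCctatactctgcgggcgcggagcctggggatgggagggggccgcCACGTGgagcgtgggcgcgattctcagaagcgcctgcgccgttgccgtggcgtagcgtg
The Mthfd2 window held 3 CCAAT boxes, whose first bases lie 96, 47 and 22 bases before the start, and none of the other 3 sequences. In the Aldh18a1 window an E-box began 59 bases and a GC box on the opposite strand 108 bases before the start. The 9 genes have 10 such windows (2 for Psat1), of which 6 held a CCAAT box, 6 a GC box and 1 an E-box, against 33.8%, 32.7% and 6.02% of 32851 mouse promoters of that length. TGATGNAA was found in 0 of the 10 and in 3.45% of all promoters, which describes these windows and no more.

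The libraries held 14.83 to 60.01 M reads, and the 10 genes had between 9 (Mthfd1l) and 2488 (Shmt2) reads in a library. Cardiomyocyte markers summed to 0.843 to 2.13 M normalized counts in every heart. Sirt4 itself did not separate the genotype labels: it read 377 ± 48.0 in cSirt4-Tg-Sham and 412 ± 96.6 in Con-Sham, 362 ± 57.8 and 341 ± 49.6 after TAC, and 349 ± 22.5 and 353 ± 18.6 with MitoQ (SD, n = 6; exact permutation p = 0.539, 0.528 and 0.742, two-sided, adjusted p = 0.742 for each). The genotype below is therefore that of the label. Of the libraries labelled cSirt4-Tg-TAC, replicate 6 had a summed fibroblast marker level of 36410 where the other 5 had 72486 to 142562, and replicate 4, the shallowest library, had the most adipocyte (31008) and lymphocyte (1002) marker counts of all 36. Con-TAC-MQ 3 stood out for dividing cell markers (4596) and fibroblast markers (121608), and Con-TAC 6 for fibroblast markers (75907) in its group. Library names carry a number of unstated meaning, 20 or 21 for the 12 MitoQ libraries and for 1 vehicle library (Con-TAC 6), 7 to 14 in the other 5 Con-TAC and in 5 cSirt4-Tg-TAC libraries, 29 in cSirt4-Tg-TAC 6, and 7 to 14 or 29 to 31 in 3 libraries each of both sham groups.

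Values below are normalized read counts (reads divided by a size factor), as mean ± SD with n = 6. Differences are on the log2(value + 1) scale from limma fitted to all 36 libraries, p-values being adjusted (Benjamini-Hochberg) across all 16275 tested genes, and genes were called at an adjusted p under 0.05. Per kilobase of exon, the mitochondrial Shmt2 was the most abundant of the 10 at 358.8 normalized counts per kb (mean of the 6 group means), followed by the cytosolic Mthfd1 at 186.9. Aldh18a1 (85.2), Shmt1 (75.8), Mthfd2 (41.4), Psph (38.0), Psat1 (29.1), Aldh1l2 (21.9), Phgdh (18.2) followed on the same scale, and Mthfd1l was the lowest. The 2 abundant genes varied little, with group means of 333.9 to 393.0 per kb for Shmt2 and 172.3 to 197.2 for Mthfd1, whereas those of Mthfd2 ran from 20.4 to 85.8 per kb.

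**Figure D1:**
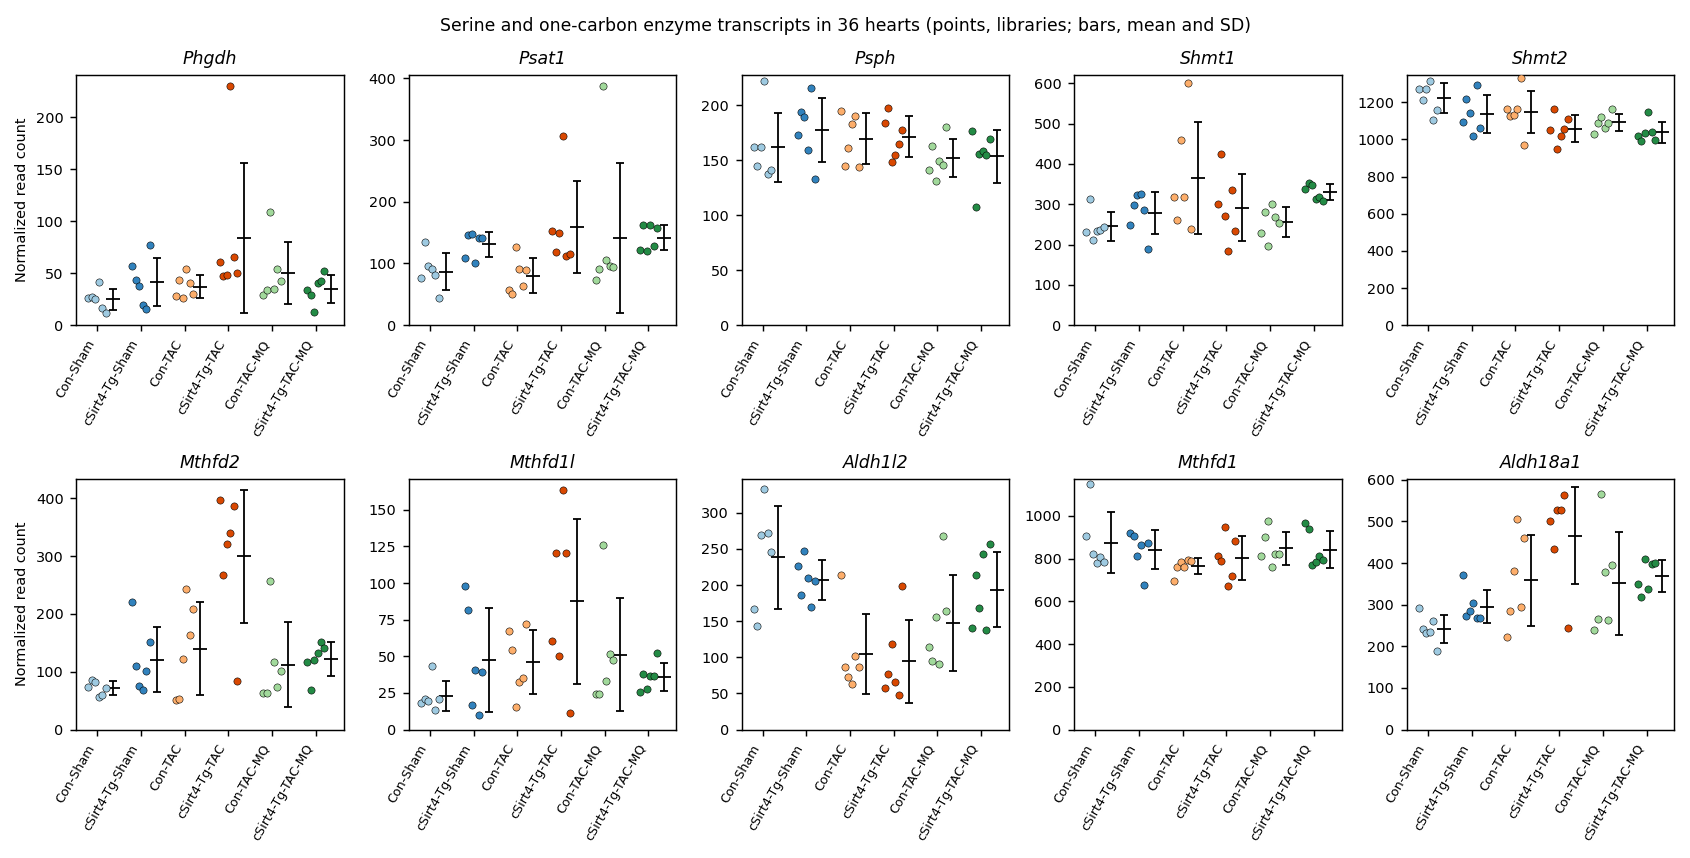
Normalized read counts of the 10 enzyme transcripts (vertical axes, from 0) in the 6 groups, with 1 point per library and bars for the mean and SD. Mthfd2 and Aldh18a1 have high values in 5 of the 6 cSirt4-Tg-TAC hearts, Aldh1l2 is low in most vehicle TAC hearts, and Shmt2 and Mthfd1 lie at similar levels in all groups.

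In hearts labelled cSirt4-Tg, 2 mitochondrial folate enzymes changed in opposite directions after TAC. Aldh1l2 fell in both genotypes, to 0.420 of its sham level in Con and 0.406 in cSirt4-Tg, while Mthfd2 rose 2.40-fold in hearts labelled cSirt4-Tg and Aldh18a1 rose 1.53-fold there. In Con, 1 of the 10 genes was called (0 higher and 1 lower), against 5.3% of all genes tested (2.65% higher and 2.65% lower); in cSirt4-Tg, 3 of 10 were called (2 higher and 1 lower), against 16.7% of all genes (7.91% higher and 8.77% lower). The median difference of the 10 genes was 0.29 in Con and 0.12 in cSirt4-Tg, beside 0.01 and -0.01 for all genes tested.

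Aldh1l2, the mitochondrial formyl-tetrahydrofolate dehydrogenase, had the highest level of its 6 groups in Con-Sham, where it ran from 143 through a median of 257.5 to 332.4. In cSirt4-Tg-Sham it lay between 170.2 and 247.3 with a median of 207.8. After TAC the lowest, median and highest values were 63.5, 87.1 and 214.5 in Con and 47.2, 72.0 and 198.9 in cSirt4-Tg. All 6 hearts of each TAC group lay below the mean of their sham group, but the groups overlapped through 1 high heart each, Con-TAC 1 and cSirt4-Tg-TAC 6. The change was -1.25 (SE 0.29, limma adjusted p = 0.0151) in Con and -1.30 (SE 0.29, limma adjusted p = 0.00395) in cSirt4-Tg. The genotypes differed in this response by -0.05 (95% interval -0.89 to 0.80, limma adjusted p = 0.987). The call in Con was lost without Con-TAC 4 (adjusted p = 0.0595) and with the name class as a covariate (-0.98, adjusted p = 0.0982); within the libraries named 7 to 14 the difference was -0.93 (adjusted p = 0.211) in Con and -1.63 (adjusted p = 0.00434) in cSirt4-Tg. Aldh1l2 shares 1056 bases of its span with Nopchap1 on the opposite strand, and the sources used here do not say whether reads were counted by strand; Nopchap1 differed by -0.15 (adjusted p = 0.437) after TAC in Con and by 0.24 (adjusted p = 0.12) in cSirt4-Tg.

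Mthfd2, the mitochondrial methylenetetrahydrofolate dehydrogenase and cyclohydrolase, was lowest in Con-Sham, at 55.6 to 85.8 with a median of 72.7. It ran from 68.0 through 105.8 to 220.5 in cSirt4-Tg-Sham and from 51.0 through 142.6 to 243.8 in Con-TAC. In cSirt4-Tg-TAC, 5 hearts had 267.5 to 397.5, above the highest value in any other group (256.1, in Con-TAC-MQ 3), and cSirt4-Tg-TAC 6 had 84.4. The mean of cSirt4-Tg-TAC, 299.4 ± 115.3, exceeded that of the next group, Con-TAC at 140.0 ± 79.9, by more than either SD, and no other step in the order of the 6 levels did so. The difference between cSirt4-Tg-TAC and cSirt4-Tg-Sham was 1.26 (SE 0.38, limma adjusted p = 0.0211, higher in 5 of 6 hearts). In Con it was 0.74 (SE 0.38, limma adjusted p = 0.244, higher in 4 of 6), and the test of the difference between these responses gave 0.53 (95% interval -0.57 to 1.62, limma adjusted p = 0.916). The call in cSirt4-Tg was lost without cSirt4-Tg-Sham 3 (adjusted p = 0.0527) or 4 (0.0588) and without cSirt4-Tg-TAC 1 (0.0533), 4 (0.0507) or 5 (0.0552), with the name class as a covariate (1.04, adjusted p = 0.0582) and with only the groups compared (0.0662). It was 1.60 without cSirt4-Tg-TAC 6 (adjusted p = 0.000993) and 1.47 within the libraries named 7 to 14 (adjusted p = 0.0278).

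Since the estimates of Mthfd2 and Aldh1l2 after TAC had opposite signs, their ratio restates those differences and is no further test. Per kilobase, the ratio of Mthfd2 to Aldh1l2 had a median of 0.642 in Con-Sham and 1.28 in cSirt4-Tg-Sham. After TAC it was 3.54 in Con (0.511 to 8.26) and 9.20 in cSirt4-Tg (0.912 to 17.6). With MitoQ it was 1.40 and 1.36. Both vehicle TAC medians lay above the highest ratio of any sham heart (2.10), and the lowest ratio of each vehicle TAC group lay within the sham range of 0.359 to 2.10. The MitoQ hearts reached 3.53 in Con and 2.38 in cSirt4-Tg.

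Mthfd1l, which releases formate in mitochondria, was the least abundant of the 10 per kilobase of exon and spread widely. It read 22.9 ± 10.5 in Con-Sham, 47.5 ± 35.2 in cSirt4-Tg-Sham, 46.2 ± 22.0 in Con-TAC and 87.7 ± 56.4 in cSirt4-Tg-TAC. The TAC differences were 0.91 (95% interval -0.14 to 1.96) in Con and 0.87 (-0.18 to 1.92) in cSirt4-Tg, and neither was called by limma. Without cSirt4-Tg-TAC 6 the difference in cSirt4-Tg was 1.36 (adjusted p = 0.0276), and without cSirt4-Tg-Sham 5 it was 0.51 (adjusted p = 0.513). Within cSirt4-Tg-TAC the values ran from 11.6 in replicate 6 to 163.5 in replicate 4.

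Aldh18a1, the enzyme that turns glutamate into the precursor of proline, an abundant residue of collagen, had 189.6 to 292.8 (median 237.7) in Con-Sham and 267.6 to 371.2 (median 278.7) in cSirt4-Tg-Sham. In Con-TAC the lowest, median and highest values were 223.1, 337.7 and 505.3. In cSirt4-Tg-TAC, 5 hearts had 433.8 to 562.5 and replicate 6 had 244.0, the same heart that was low for Mthfd2. The TAC difference in cSirt4-Tg was 0.62 (SE 0.19, limma adjusted p = 0.0259, higher in 5 of 6), and that in Con, 0.52 (SE 0.19, limma adjusted p = 0.0986, higher in 5 of 6), was not called. The call was lost without cSirt4-Tg-TAC 1 (adjusted p = 0.0553), 3 (0.0529), 4 (0.0626) or 5 (0.0694) with the name class as a covariate (0.50, adjusted p = 0.0700) and with only the groups compared (0.0629); within the libraries named 7 to 14 the difference was 0.73 (adjusted p = 0.0179). In Con, the difference passed without Con-TAC 1 (0.65, adjusted p = 0.0311), with DESeq2 (0.57, adjusted p = 0.0437) and without the 4 libraries that stand apart (0.44, adjusted p = 0.0492), and it was 0.26 with the name class as a covariate (adjusted p = 0.525).

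Markers of other cells moved in the same comparisons. In cSirt4-Tg, 5 of 8 fibroblast, 2 of 7 dividing cell, 1 of 6 endothelial and 1 of 5 smooth muscle and pericyte markers rose after TAC. This stands against 7.91% of all genes tested. There 5 of 8 cardiomyocyte and 2 of 3 Schwann cell markers fell, against 8.77% of all genes. In Con, 4 of 4 erythroid, 2 of 8 fibroblast and 1 of 6 endothelial markers rose, against 2.65% of all genes. The erythroid sum ran from 1420 to 4329 in Con-Sham and from 3667 to 8259 in Con-TAC. The summed fibroblast markers ran from 25708 to 29156 in Con-Sham, 40577 to 56960 in cSirt4-Tg-Sham, 28511 to 75907 in Con-TAC and 36410 to 142562 in cSirt4-Tg-TAC, and no fibroblast or cardiomyocyte marker was at 0 in any library. Reads of the ribosomal RNA gene Rn18s-rs5 had a median share of 6.43% in Con-Sham and 1.87% in Con-TAC, and of 5.45% and 4.95% in the cSirt4-Tg groups. The part of these markers and reads in the differences of the enzymes was not tested, and in whole hearts fewer cells of a type and less RNA per cell cannot be told apart.

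The serine synthesis enzymes were not called after TAC in either genotype. Phgdh, which commits carbon to serine, read 24.8 ± 10.2 in Con-Sham and 37.0 ± 10.9 in Con-TAC (0.61, SE 0.39, limma adjusted p = 0.358). In cSirt4-Tg it read 41.8 ± 23.1 and 83.7 ± 72.1 (0.90, SE 0.39, limma adjusted p = 0.105), with 229.9 in cSirt4-Tg-TAC 4 and no more than 65.8 elsewhere in the group; without that library the difference was 0.56 (adjusted p = 0.33). All 6 hearts of each TAC group lay above their sham mean. Psat1, the aminotransferase, differed by -0.12 (95% interval -0.71 to 0.48) in Con and 0.20 (-0.40 to 0.79) in cSirt4-Tg. Psph, the phosphatase, differed by 0.08 (-0.19 to 0.35) and -0.04 (-0.31 to 0.23), and its 6 group means lay between 151.9 and 177.5.

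Among the hydroxymethyltransferases, the mitochondrial Shmt2 read 1222 ± 79.6 in Con-Sham and 1147 ± 115.0 in Con-TAC, 1138 ± 101.0 in cSirt4-Tg-Sham and 1058 ± 74.3 in cSirt4-Tg-TAC. Its TAC differences of -0.10 in each genotype (95% intervals -0.23 to 0.04 and -0.24 to 0.03) were small and not called. The cytosolic Shmt1 read 244.8 ± 35.5 in Con-Sham and 365.8 ± 138.5 in Con-TAC, a difference that was not called (0.51, SE 0.18, limma adjusted p = 0.0800, higher in 5 of 6), and differed by 0.04 (SE 0.18) in cSirt4-Tg. Without Con-TAC 6 the difference in Con was 0.62 (adjusted p = 0.0380), and it also passed with DESeq2 (0.0271) and with libraries scaled to 1 total of non-mitochondrial reads (0.0329). It stayed uncalled in 11 of the 12 fits that left out 1 library. Without Con-TAC 5, the highest heart at 600.7, it was 0.35 (limma adjusted p = 0.208). The adjusted p was 0.137 with only the groups compared and 0.29 within the libraries named 7 to 14. Mthfd1, the cytosolic enzyme that takes up formate, was at 875.4 ± 142.2 in Con-Sham and 764.8 ± 36.4 in Con-TAC (-0.18, 95% interval -0.37 to 0.01) and differed by -0.07 (-0.26 to 0.12) in cSirt4-Tg.

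**Figure D2:**
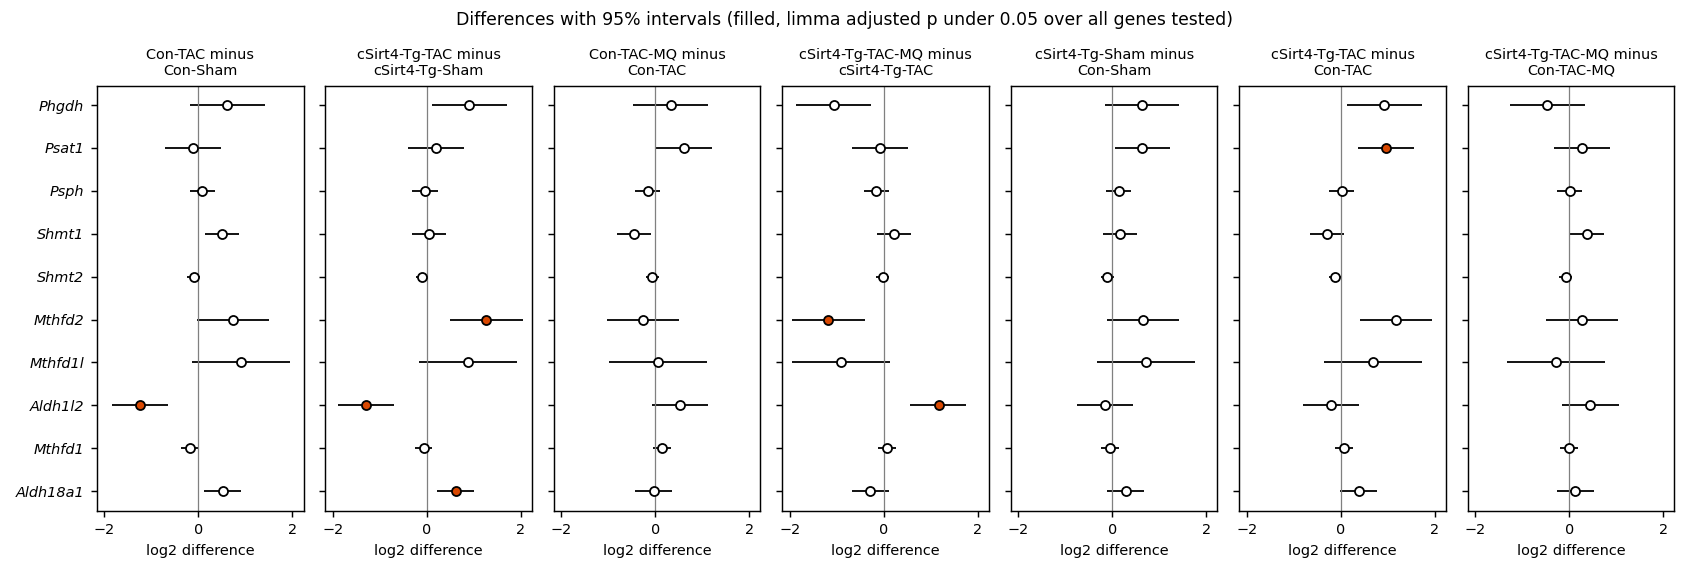
Differences of the 10 transcripts in 7 comparisons (horizontal axes, log2 difference; points, limma estimates; lines, 95% intervals), with filled points for an adjusted p under 0.05. Aldh1l2 is filled below 0 after TAC in both genotypes and above 0 with MitoQ in cSirt4-Tg, and Mthfd2 is filled above 0 after TAC and below 0 with MitoQ in cSirt4-Tg.

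MitoQ was compared with vehicle among TAC hearts. In hearts labelled cSirt4-Tg, Aldh1l2 was 2.24-fold higher with MitoQ and Mthfd2 was at 0.443 of its vehicle level, and these were the 2 of 10 genes called, against 17.3% of all genes tested (9.89% higher and 7.44% lower). In Con, 0 of 10 were called (2 at an unadjusted p under 0.05; 0 with edgeR and 0 with DESeq2), against 3.23% of all genes (1.92% higher and 1.31% lower). The vehicle hearts here are those of the TAC comparison above, so the comparisons share 6 libraries per genotype. Within cSirt4-Tg all MitoQ libraries were named 20 or 21 and no vehicle library was, so that treatment and name class cannot be told apart there, and Rn18s-rs5 reads made up 0.591% to 1.39% of MitoQ libraries and 1.55% to 11.8% of vehicle TAC libraries. With MitoQ in cSirt4-Tg 3 of 8 fibroblast markers and 1 of 7 macrophage markers fell and 2 of 8 cardiomyocyte and 1 of 3 Schwann cell markers rose, the summed fibroblast markers running from 54337 to 64311 with MitoQ and from 36410 to 142562 with vehicle. The part of the ribosomal reads and of these markers in the differences was not tested.

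Aldh1l2 ran from 137.2 through a median of 191.7 to 257.5 in cSirt4-Tg-TAC-MQ, and 5 of the 6 vehicle hearts (47.2 to 117.8) lay below all of these. The difference was 1.17 (SE 0.29, limma adjusted p = 0.00645, higher in 6 of 6), and 1.41 with adjusted p = 0.113 with the name class as a covariate, a fit in which Con-TAC 6 alone links the classes. In Con it was 0.52 (SE 0.29, limma adjusted p = 0.347, higher in 4 of 6), with values of 90.6 to 267.9 under MitoQ, and the 2 responses differed by 0.65 (95% interval -0.20 to 1.49, limma adjusted p = 0.658). Against sham hearts of the same genotype, the MitoQ-treated TAC hearts differed in Aldh1l2 by -0.73 (SE 0.29, limma adjusted p = 0.207) in Con and by -0.13 (SE 0.29, limma adjusted p = 0.952) in cSirt4-Tg.

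Mthfd2 ran from 68.9 through 126.6 to 152.0 in cSirt4-Tg-TAC-MQ, below 5 of the 6 vehicle hearts and around the 84.4 of cSirt4-Tg-TAC 6. The difference was -1.18 (SE 0.38, limma adjusted p = 0.0296, lower in 6 of 6). In Con it was -0.26 (95% interval -1.04 to 0.51). The call was lost without cSirt4-Tg-TAC 1 (adjusted p = 0.0715), 3 (0.0512), 4 (0.0617) or 5 (0.0696) or cSirt4-Tg-TAC-MQ 2 (0.0795), and with libraries scaled to 1 total of non-mitochondrial reads (-1.08, adjusted p = 0.0519). With the name class as a covariate it was -2.26 (adjusted p = 0.0402), a shift of over 1.5 times that rests on the same single vehicle library. The responses of the 2 genotypes differed by -0.91 (95% interval -2.01 to 0.18, limma adjusted p = 0.628).

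Phgdh and Mthfd1l were lower with MitoQ in 6 of 6 cSirt4-Tg hearts without being called by limma. Phgdh read 35.0 ± 13.3 with MitoQ (difference -1.06, SE 0.39, limma adjusted p = 0.0547), and without cSirt4-Tg-TAC 3, cSirt4-Tg-TAC 6 or cSirt4-Tg-TAC-MQ 6 its adjusted p was 0.0482, 0.0338 and 0.0486; without cSirt4-Tg-TAC 4 the difference was -0.72 (adjusted p = 0.188). It passed with edgeR (-1.20, adjusted p = 0.0357), DESeq2 (0.0169), pseudocount 10 (0.0490) and a minimum of 50 (0.0484). Mthfd1l read 35.9 ± 9.41 (difference -0.91, SE 0.51, limma adjusted p = 0.221), and passed with DESeq2 (-1.28, adjusted p = 0.0376), without cSirt4-Tg-TAC 6 (-1.40, adjusted p = 0.0243) and without the 4 libraries that stand apart (-1.20, adjusted p = 0.0466); with the name class as a covariate it was -2.02 (adjusted p = 0.192). Shmt1 showed opposite estimates in the 2 genotypes, -0.46 (95% interval -0.82 to -0.09, limma adjusted p = 0.147) in Con and 0.22 (-0.14 to 0.59, limma adjusted p = 0.409) in cSirt4-Tg. The difference between these responses was 0.68 (SE 0.25, unadjusted p = 0.0108, limma adjusted p = 0.546), and that for Phgdh was -1.39 (SE 0.55, unadjusted p = 0.0163, limma adjusted p = 0.574). Without Con-TAC 6 the Shmt1 difference in Con was -0.56 (adjusted p = 0.0368), without Con-TAC 5 it was -0.30 (0.406), without the 4 libraries that stand apart -0.49 (0.037), and it was 0.08 with the name class as a covariate. Psph, Shmt2, Mthfd1 and Aldh18a1 were not called by limma with MitoQ in either genotype, and their estimates lay between -0.29 and 0.15. Aldh18a1 passed in cSirt4-Tg without cSirt4-Tg-TAC 6 (-0.47, adjusted p = 0.0468) and without the 4 libraries that stand apart (-0.46, adjusted p = 0.0328), and with the name class it was -0.85 (adjusted p = 0.131).

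No gene at all was called for a genotype difference in the response to TAC or to MitoQ (0 of 16275 in each with limma, with 949 and 1377 genes at an unadjusted p under 0.05; edgeR called 0 and 0, DESeq2 2 and 16), so none of the 10 transcripts is shown to respond differently by genotype. Without the 4 libraries that stand apart (cSirt4-Tg-TAC 4, cSirt4-Tg-TAC 6, Con-TAC-MQ 3 and Con-TAC 6, an alternative chosen after seeing the data), limma called 347 and 527 genes, 0 of the 10 among them in each. Between MitoQ-treated TAC hearts and sham hearts 0 of the 10 genes were called in Con and 0 in cSirt4-Tg with limma, edgeR or DESeq2, against 0.707% (0.35% higher and 0.356% lower) and 0.129% (0% higher and 0.129% lower) of all genes, with 4 and 0 of the 10 at an unadjusted p under 0.05. These groups also shared no name class.

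The genotype labels were compared within each treatment. Psat1, the aminotransferase of serine synthesis, was 1.94-fold higher in cSirt4-Tg-TAC than in Con-TAC and was the 1 gene of the 10 called by limma, against 6.48% of all genes tested (3.19% higher and 3.29% lower). In sham hearts and in MitoQ-treated hearts 0 of the 10 were called (1 at an unadjusted p under 0.05 in each; 0 with edgeR or DESeq2), against 0.873% (0.786% higher and 0.086% lower) and 0.0737% (0.0492% higher and 0.0246% lower). The median difference of the 10 genes was 0.23 in sham, 0.22 in TAC and 0.07 in MitoQ-treated hearts.

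Psat1 ran from 51.1 through 76.9 to 126.8 in Con-TAC and from 111.7 through 134.2 to 307.2 in cSirt4-Tg-TAC. All 6 cSirt4-Tg-TAC hearts lay above the Con-TAC mean, and 3 of them above every Con-TAC heart. The difference was 0.955 (SE 0.29, limma adjusted p = 0.0424). In sham hearts Psat1 ran from 44.0 through 85.7 to 134.2 in Con and from 100.9 through 140.9 to 147.5 in cSirt4-Tg, a difference of 0.64 (SE 0.29, limma adjusted p = 0.331) with 6 of 6 cSirt4-Tg hearts above the Con mean. With MitoQ it was 141.5 ± 121.1 in Con, where Con-TAC-MQ 3 had 387.7 and the other 5 hearts 73.8 to 106.3, and 142.1 ± 20.6 in cSirt4-Tg (0.27, SE 0.29, limma adjusted p = 1). The call in TAC hearts was lost in 8 of the 12 fits that left out 1 library, without Con-TAC 1 (adjusted p = 0.0988), 2 (0.0871), 3 (0.0519) or 5 (0.0939) and without cSirt4-Tg-TAC 1 (0.0761), 3 (0.0654), 4 (0.153) or 5 (0.0612), with no filter (0.058), with the non-mitochondrial total (0.0534), with only the groups compared (0.207) and with edgeR (0.97, adjusted p = 0.0527); within the libraries named 7 to 14 it was 1.07 (adjusted p = 0.0103). MitoQ against vehicle gave 0.61 for Psat1 in Con (SE 0.29, limma adjusted p = 0.246), which was 0.26 without Con-TAC-MQ 3 (adjusted p = 0.578) and 0.31 without the 4 libraries that stand apart (0.358), and -0.08 in cSirt4-Tg (95% interval -0.67 to 0.52). With the cSirt4-Tg label 4 of 7 macrophage and 1 of 8 fibroblast markers were higher in sham hearts, against 0.786% of all genes. In TAC hearts 4 of 7 macrophage, 3 of 8 fibroblast and 2 of 5 smooth muscle and pericyte markers were higher, against 3.19% of all genes. There 1 of 8 cardiomyocyte markers was lower, against 3.29%. The macrophage sum ran from 3589 to 4568 in Con-Sham, 5647 to 7904 in cSirt4-Tg-Sham, 3815 to 5202 in Con-TAC and 4120 to 8925 in cSirt4-Tg-TAC. The median share of Rn18s-rs5 reads was 1.87% in Con-TAC and 4.95% in cSirt4-Tg-TAC, and that of mitochondrial reads 23.4% and 17.6%. The part of these markers and reads in the Psat1 difference was not tested.

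Mthfd2 missed the threshold between cSirt4-Tg-TAC and Con-TAC at 1.18 (SE 0.38, limma adjusted p = 0.0526, higher in 5 of 6). It passed with pseudocount 10 (adjusted p = 0.0495), a minimum of 50 (0.0466) and DESeq2 (0.0293), and without Con-TAC 4 (adjusted p = 0.0331), Con-TAC 6 (0.0184) or cSirt4-Tg-TAC 6 (1.51, adjusted p = 0.00295), without the 4 libraries that stand apart (1.67, adjusted p = 0.000528), with the name class as a covariate (1.46, adjusted p = 0.0077) and within the libraries named 7 to 14 (1.68, adjusted p = 0.00394). The difference stayed uncalled in 9 of the 12 fits that left out 1 library. It was 0.94 (limma adjusted p = 0.143) without Con-TAC 1 and 0.95 (0.12) without Con-TAC 2. The adjusted p was 0.268 with only the groups compared, 0.0763 with no filter and 0.0618 with edgeR. The lowest value of cSirt4-Tg-TAC, in replicate 6, was also the only one of that group from a library not named 7 to 14. In sham hearts Mthfd2 differed by 0.65 (SE 0.38, limma adjusted p = 0.476) and with MitoQ by 0.27 (SE 0.38, limma adjusted p = 1).

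The remaining genes were not called by genotype label in any treatment with limma fitted to all 36 libraries. Phgdh differed by 0.63 (SE 0.39) in sham, 0.92 (SE 0.39, limma adjusted p = 0.128) in TAC and -0.47 (SE 0.39) in MitoQ-treated hearts. Its TAC difference passed with DESeq2 (1.16, adjusted p = 0.0407) and was 0.58 without cSirt4-Tg-TAC 4 (adjusted p = 0.399). Aldh18a1 differed by 0.39 (SE 0.19, limma adjusted p = 0.195) in TAC hearts, and passed with the name class as a covariate (0.53, adjusted p = 0.0463), without cSirt4-Tg-TAC 6 (0.56, adjusted p = 0.0213), without the 4 libraries that stand apart (0.63, adjusted p = 0.00498) and within the libraries named 7 to 14 (adjusted p = 0.0109). This difference stayed uncalled in 11 of the 12 fits that left out 1 library. It was 0.26 without Con-TAC 1 (limma adjusted p = 0.43), and the adjusted p was 0.419 with only the groups compared. Mthfd1l differed by 0.68 (SE 0.51, limma adjusted p = 0.405) and passed within the libraries named 7 to 14 (1.33, adjusted p = 0.0466); it was 0.41 without Con-TAC 3, 0.43 without cSirt4-Tg-TAC 4 and 1.17 without cSirt4-Tg-TAC 6, none of these called. Aldh1l2 differed by -0.15 (95% interval -0.75 to 0.45) in sham -0.20 (-0.80 to 0.40) in TAC and 0.45 (-0.15 to 1.05) in MitoQ-treated hearts. In MitoQ-treated hearts Shmt1 ran from 307.7 to 353.8 in cSirt4-Tg-TAC-MQ and from 197.3 to 301.0 in Con-TAC-MQ (0.38, SE 0.18, limma adjusted p = 1). How many of all genes tested had separate ranges there was not computed. The estimates for Psph, Shmt2 and Mthfd1 lay between -0.11 and 0.14 in the 3 treatments.

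Expressed genes overlap the spans of Aldh1l2, Shmt1, Shmt2 and Psph on the opposite strand. Nopchap1, over Aldh1l2, was higher by 0.36 in cSirt4-Tg-TAC than in Con-TAC (limma adjusted p = 0.0417). Smcr8 (184 shared bases with Shmt1) rose by 0.43 with MitoQ in cSirt4-Tg, and Ndufa4l2 (32 with Shmt2) rose by 0.44 after TAC and fell by 0.43 with MitoQ there (limma adjusted p = 0.0161, 0.00857 and 0.00862). Cct6a shares 452 bases with Psph. Reads in the shared bases of such pairs cannot be told apart if strand was not used. On the same strand, Gm43890 shares 2799 bases with the span of Mthfd2 and Gm15801 shares 522 with that of Aldh18a1. Their mean normalized counts over all libraries were 1.16 and 0.62. Strand cannot separate reads in those bases, and how they were assigned is not stated in the sources used here.

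Within groups, some of the enzymes varied together from heart to heart. After subtracting each group's mean log2 value, 45 pairs were compared over the 36 libraries with permutation tests within groups (100000 resamples, two-sided), and 4 pairs passed an adjusted p of 0.05 for Pearson's r, all of them positive. The share of passing pairs among all genes was not computed, so such pairs are not shown to be particular to these enzymes. Mthfd2 and Aldh18a1 had the highest r, 0.826 (p = 2e-05, adjusted p = 0.0009), with Spearman's rho of 0.714 (p = 6e-05, adjusted p = 0.00135); r was 0.734 without the 2 hearts farthest from the median of Mthfd2 (cSirt4-Tg-TAC 6 and Con-TAC-MQ 3). By name class r was 0.777 over the 16 libraries named 7 to 14 and 0.917 over the 12 MitoQ libraries, but -0.583 over the 6 sham libraries named 29 to 31. The relation was thus not seen in that small class, and r within a class was not tested. Psph and Shmt2 had r = 0.675 (permutation p = 8e-05, adjusted p = 0.0018) and rho = 0.715 (p = 1e-05, the smallest these permutations can give, adjusted p = 0.00045), with r = 0.696 without the 2 farthest hearts and 0.763, 0.332 and 0.890 in the 3 name classes.

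Phgdh followed Psat1 with r = 0.568 (permutation p = 0.00199, adjusted p = 0.0298) and rho = 0.453 (p = 0.00614, adjusted p = 0.068). Without cSirt4-Tg-TAC 4 and Con-TAC-MQ 3 r was 0.328, so its size depends in part on those hearts. By name class r was 0.454 (named 7 to 14), 0.724 (20 to 21) and 0.563 (29 to 31), the last class holding neither heart. Phgdh and Mthfd1l had r = 0.562 (permutation p = 0.00379, adjusted p = 0.0426) and rho = 0.543 (p = 0.00168, adjusted p = 0.0252), with r = 0.451 without the same hearts. Mthfd2 and Aldh1l2 had r = -0.46 within groups, with an adjusted permutation p of 0.1.

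**Figure D3:**
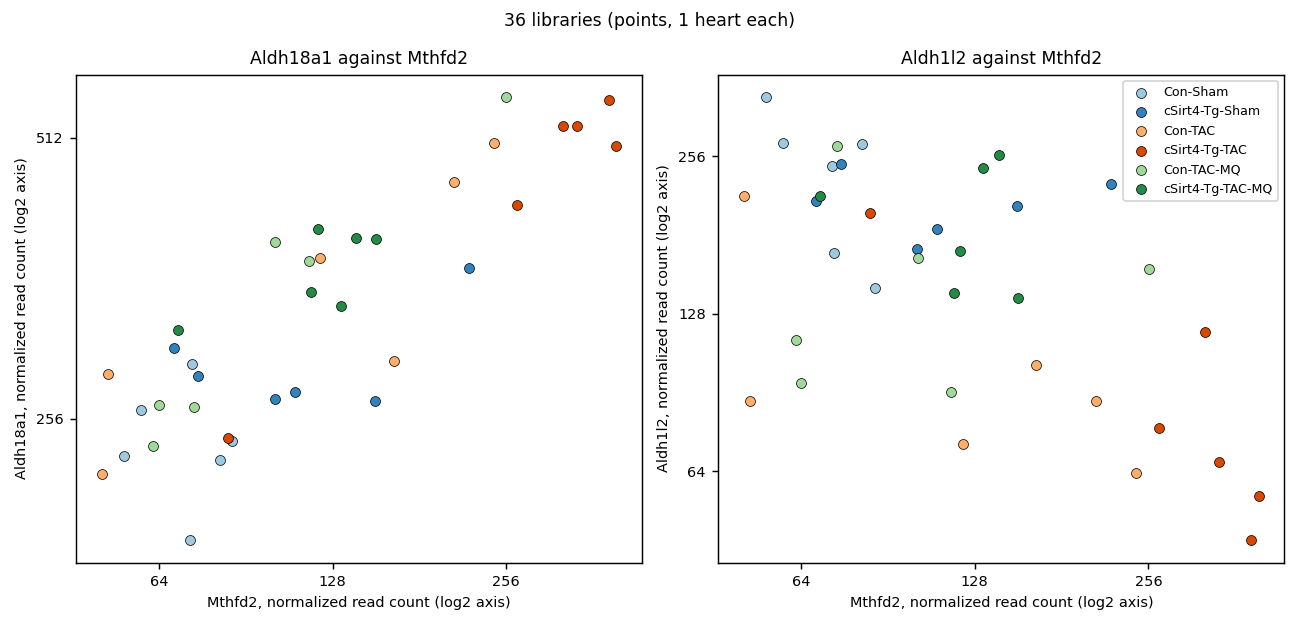
Aldh18a1 (left) and Aldh1l2 (right) against Mthfd2, as normalized read counts on log2 axes, with 1 point per heart coloured by group. In the left panel hearts high in Mthfd2 are high in Aldh18a1; in the right panel the cSirt4-Tg-TAC hearts other than replicate 6 lie at the lower right, and replicate 6 lies among the sham hearts.

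**Figure D4:**
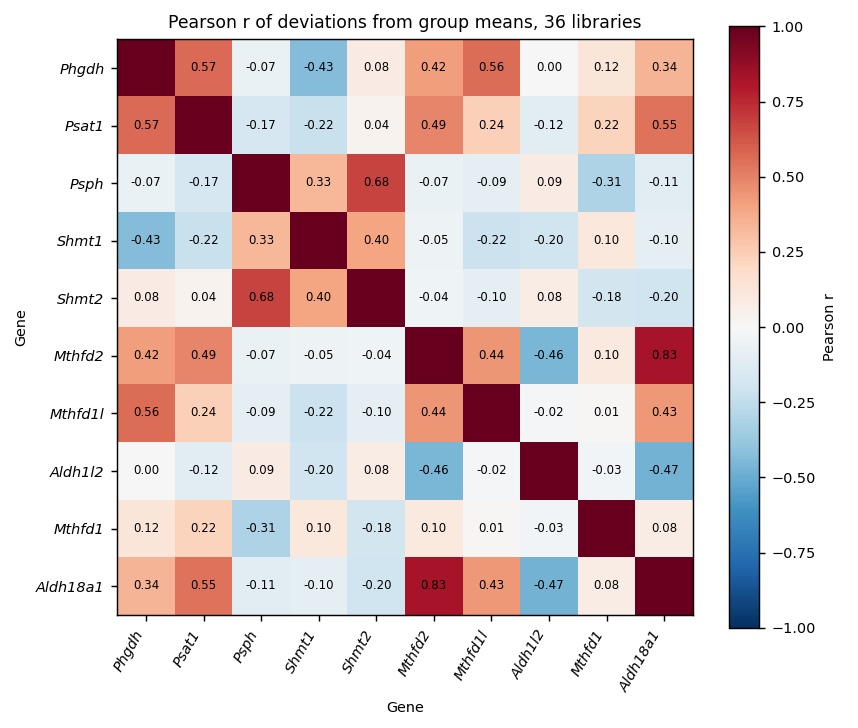
Pearson r between the 10 transcripts (both axes, genes) for deviations of log2 values from group means over 36 libraries, with colour from -1 to 1. The largest value is 0.83 for Mthfd2 and Aldh18a1, followed by 0.68 for Psph and Shmt2.

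Of the other genes tested, those whose log2 values followed Mthfd2 most closely over all 36 libraries were Ctsb (r = 0.889), which encodes the lysosomal protease cathepsin B, Cltb (0.875), a clathrin light chain, and Cavin3 (0.874), a coat protein of caveolae. Aldh1l2 was followed most closely by Cenpf (r = 0.911), a kinetochore protein, Sorcs2 (0.910), a sorting receptor, and Fto (0.859), an RNA demethylase. For Aldh18a1 they were Rab31 (0.905), Loxl1 (0.904), a collagen and elastin cross-linking enzyme, and Uck2 (0.902), a uridine-cytidine kinase. After subtracting group means these had r = 0.834, 0.836 and 0.844 with Aldh18a1, beside 0.826 for Mthfd2. With Mthfd2, Ctsb, Cltb and Cavin3 then had r = 0.796, 0.791 and 0.765. Psat1 was most like Mmp19 (0.825), Ifi30 (0.818) and Cfp (0.802), and after subtracting group means these had r = 0.771, 0.774 and 0.722. For Phgdh, Psph, Shmt1, Shmt2, Mthfd1l and Mthfd1 the closest genes had r of 0.772 (Zfand2a), 0.643 (Gm11808), 0.695 (Adprhl1), 0.765 (Csnk2b), 0.829 (Hip1) and 0.661 (Ttc7). These correlations are descriptive, since all points share the same libraries and groups.

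The enzymes around these steps were followed through 8 gene lists, of which 117 of 120 genes were in the table. Their counts stand beside the shares of all genes called: after TAC 2.65% higher and 2.65% lower in Con and 7.91% and 8.77% in cSirt4-Tg, with MitoQ 1.92% and 1.31% in Con and 9.89% and 7.44% in cSirt4-Tg, and by genotype label in TAC hearts 3.19% and 3.29%. In the folate cycle and folate transport list (17 genes tested), 2 genes fell after TAC in cSirt4-Tg, the methionine synthase Mtr (5484 ± 865.6 to 2977 ± 1235, -0.95, SE 0.18, limma adjusted p = 0.00134) and Mtrr, the enzyme that reactivates it (-0.30, SE 0.09, limma adjusted p = 0.0167), and the same 2 rose with MitoQ there (0.83 and 0.46, limma adjusted p = 0.00256 and 0.000679). In Con, 0 of the 17 were called after TAC and 0 with MitoQ. Between genotype labels in TAC hearts Ggh, which trims folate polyglutamates, was higher by 0.40 and Mtrr differed by -0.34. The list's median was 0.07 after TAC in cSirt4-Tg and -0.11 with MitoQ there, where 4 of 17 estimates were positive.

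Purine synthesis, a main user of formate, had 13 genes tested. Pfas, which catalyses the fourth step of the pathway, fell after TAC in Con (560.7 ± 46.6 to 350.5 ± 39.5, -0.68, SE 0.12, limma adjusted p = 0.00111) and in cSirt4-Tg (-0.55, SE 0.12, limma adjusted p = 0.00273). Prps2, which makes the ribose donor, fell by 0.56 and by 0.60, and Ppat, the committed step, fell by 0.45 in cSirt4-Tg. With MitoQ Pfas and Prps2 rose in both genotypes (Prps2 by 0.50 in Con and 0.75 in cSirt4-Tg) and Ppat by 0.41 in cSirt4-Tg. The other 10 or 11 genes of the list were not called in these comparisons, and its medians lay between -0.05 and 0.02.

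Of 13 tested genes of serine transport and serine use, 1 rose after TAC in Con (Ptdss1, a phosphatidylserine synthase, by 0.28) and 3 rose in cSirt4-Tg: Sdsl, which degrades serine, by 0.48, Sfxn3, a mitochondrial serine carrier, by 0.75, and Sptlc2, which condenses serine into sphingolipids, by 0.51. With MitoQ in cSirt4-Tg Sdsl fell by 0.60 and Sfxn3 by 0.60, and Sptlc2 was higher in cSirt4-Tg-TAC than in Con-TAC by 0.46. In proline and glutamate metabolism, Prodh, the first enzyme of proline breakdown, fell from 902.7 ± 233.2 to 465.4 ± 64.3 after TAC in cSirt4-Tg (-0.93, SE 0.16, limma adjusted p = 0.000525) beside Aldh4a1 (-0.56), the next enzyme of that path. Of 10 tested glycine genes, 1 fell after TAC in cSirt4-Tg (Gnmt, -1.86, limma adjusted p = 0.0133, at 23.2 ± 14.1), and 0 of 7 genes of the methionine cycle and transsulfuration were called in any of the comparisons here.

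ATF4 and its targets outside the 10 enzymes had 29 genes tested. After TAC, 2 rose (Slc7a5 by 0.90 and Sars by 0.27) and 1 fell (Stc2, by 0.69) in Con, and 9 rose and 1 fell in cSirt4-Tg (7.91% and 8.77% of all genes), where Vldlr fell by 0.75 (limma adjusted p = 0.00214), Atf4 itself went from 1573 ± 155.0 to 2380 ± 460.9 (0.58, SE 0.13, limma adjusted p = 0.00387) and Nupr1 rose by 1.67 (SE 0.41, limma adjusted p = 0.00713). With MitoQ in cSirt4-Tg 12 fell and 1 rose (7.44% and 9.89% of all genes), Atf4 falling by 0.56 (limma adjusted p = 0.00368), Sars by 0.33 (0.00147) and the lipoprotein receptor Vldlr rising by 0.69 (0.00272), whereas 0 of 29 were called with MitoQ in Con. The list's median was 0.25 after TAC (27 of 29 estimates positive) and -0.41 with MitoQ (3 of 29) in cSirt4-Tg, beside -0.01 and -0.00 for all genes tested. In Con the medians had the same signs, 0.195 after TAC (22 of 29 positive) and -0.187 with MitoQ (6 of 29). For a genotype difference in the response to TAC or to MitoQ, 0 of the 29 were called. Between genotype labels in TAC hearts Stc2 and Asns, the asparagine synthetase, were higher (0.88 and 0.70) and Vldlr lower (-0.52). Of 9 upstream kinases and regulators, Eif2ak3 rose by 0.30 and Dele1, a mitochondrial stress relay, fell by 0.49 after TAC in cSirt4-Tg, and Dele1 differed from Con-TAC by -0.50 there.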

How the data were processed

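The authors isolated RNA from whole hearts with the RNeasy Fibrous Tissue Mini kit and prepared libraries with the NEBNext Ultra II Directional kit, per the labels' protocols. The submitters' processing notes name Trim Galore, STAR and the mm39 build; the sources used here state no versions, no read counter or strand setting, and no normalizing tool. The authors deposited a signal for each gene in each library, namely reads scaled by a library factor. Dividing by that factor gave whole reads (100% of values within 0.01 read), so reads were recovered as counts for edgeR and DESeq2 from the deposited values.

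Groups came from the labels. The log2(value + 1) scale was used in limma 3.58.1 (R 4.3.3; trend, robust, 1 mean per group, all 36 libraries, 30 residual degrees of freedom), two-sided; p-values were adjusted by Benjamini and Hochberg's method across 16275 genes and the threshold was 0.05. The 9 comparisons of 2 groups and 2 interactions were contrasts of this fit. Hearts counted as higher or lower are set against the other group's mean log2 value. The series' design gives 6 mice a group; the labels say no more on how replicates were obtained. On simulated data the steps were tested for recovery of planted changes. Sirt4 was tested by exact permutation. No 2 libraries of a group held identical values (90 pairs compared).

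The 10 genes, the lists and the naming rule were chosen with earlier results of these data known. The rule takes all 10 genes and Sirt4, at most 3 called genes of each list in a comparison (lowest adjusted p first), and the 3 most correlated genes per enzyme; genes that overlap an enzyme's span are named for that alone, after their values were seen. Exon lengths for values per kb are from GENCODE, and promoters from RefSeq (GRCm38.p6); coordinates in different builds were not combined. Alternatives were pseudocounts 0.5 and 10, a minimum of 50 or none, TMM scaling, 1 total of non-mitochondrial reads for all libraries, a replicate block, the name class as covariate, only the groups compared, edgeR 4.0.16, DESeq2 1.42.0 and leaving out each library. Leaving out 4 libraries and keeping only those named 7 to 14 were added after the data were seen. Some results of the proline and glutamate list are not reported here.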

Additional observations from a re-analysis of the deposited data

Results flagged for a closer look

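In 12 of 60 sets of 6 hearts (10 genes in 6 groups), the highest or lowest heart stood apart from the other 5 by more than Dixon's 95% limit on the log2 scale, where chance gives about 1 in 20. Among libraries labelled cSirt4-Tg-TAC, replicate 6 had the lowest Mthfd2 (84.4, others 267.5 to 397.5) and Aldh18a1 (244.0, others 433.8 to 562.5), and replicate 4 the highest Phgdh (229.9, others 47.2 to 65.8) and Psat1 (307.2, others 111.7 to 152.0). Psat1 was also high in Con-TAC-MQ 3 (387.7, others 73.8 to 106.3). All 3 libraries are among the 4 whose summed markers of other cells stood apart in their groups.

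The other values were Psph in Con-Sham 4 (222.4, others 137.7 to 162.5), Mthfd1l in the same library (43.5, others 13.7 to 21.1), Psph in cSirt4-Tg-TAC-MQ 2 (107.9, others 155.1 to 176.7), Mthfd2 in the same library (68.9, others 117.6 to 152.0), Shmt1 in Con-Sham 2 (313.5, others 210.3 to 243.7), Shmt2 in cSirt4-Tg-TAC-MQ 4 (1149, others 992.3 to 1040) and Mthfd1 in Con-TAC 1 (696.4, others 760 to 792.5).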

How the results depend on the processing

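The number of the 10 enzymes called after TAC was 1 in Con and 3 in cSirt4-Tg. In Con it was 2 with libraries scaled to 1 total of non-mitochondrial reads (the non-mitochondrial total), 0 with the name class as a covariate, 3 with DESeq2, 3 without 4 libraries that stand apart, 0 with only libraries named 7 to 14, and 0 to 2 when 1 library was left out. In cSirt4-Tg it was 1 with the name class, 1 with only the groups compared and 1 to 4 with 1 library left out. For the genotype label in TAC hearts the count of 1 became 2 with pseudocount 10, 0 with no filter, 2 with a minimum of 50, 0 with the non-mitochondrial total, 3 with the name class, 0 with only the groups compared, 0 with edgeR, 3 with DESeq2, 3 without the 4 libraries, 4 with only libraries named 7 to 14, and 0 to 3 with 1 library left out. For MitoQ in Con the count of 0 became 1 without the 4 libraries and 0 to 1 with 1 library left out; in cSirt4-Tg the count of 2 became 1 with the non-mitochondrial total, 1 with the name class, 4 with DESeq2, 4 without the 4 libraries, and 1 to 5 with 1 library left out. MitoQ-treated TAC hearts against sham in Con went from 0 to 1 with the non-mitochondrial total. The cause of these shifts was not tested. The call of Aldh1l2 after TAC in cSirt4-Tg was kept under all 12 fits with 1 library left out and all 13 other alternatives (adjusted p from 0.000102 to 0.0312).

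Signs were compared only for Sirt4 and where an enzyme had an unadjusted p under 0.05 or was called in some fit. Smaller estimates were not followed. Among those compared, Shmt1 with MitoQ in Con changed sign (0.084 with the name class). So did Shmt2 in MitoQ-treated TAC against sham hearts of Con (0.006 with the non-mitochondrial total and 0.110 with the name class). Aldh18a1 in that comparison (-0.190 with the name class) and Sirt4 with MitoQ (0.038 with the non-mitochondrial total) did too. With 1 library left out the Sirt4 difference ran from -0.157 to 0.008 in sham, from 0.003 to 0.125 in TAC and from -0.039 to 0.015 in MitoQ-treated hearts. The non-mitochondrial total shifted the all-gene median by 0.103 after TAC in Con, 0.0999 with MitoQ in cSirt4-Tg, and 0.165 and 0.139 in MitoQ-treated TAC against sham hearts, and changed the split of called genes from 431 higher and 432 lower to 930 and 183 after TAC in Con and from 1610 and 1211 to 2799 and 485 with MitoQ in cSirt4-Tg. The counts of all genes called also moved by over 1.5 times, for example from 863 to 166 after TAC in Con with the name class, from 2821 to 4651 with MitoQ in cSirt4-Tg without the 4 libraries, and from 1054 to 1 for the genotype label in TAC hearts with only the groups compared. The deviations of same-numbered libraries had r from -0.483 to 0.311, over 0.1 in at most 2 of the 6 pairs of a comparison, so the numbers were not taken to pair the samples, and with the replicate block the counts stayed 1, 3 and 2 after TAC in Con, TAC in cSirt4-Tg and MitoQ in cSirt4-Tg and 1 for the genotype label in TAC hearts. Phgdh and Mthfd1l had as few as 12 and 9 reads in a library, which limits what differences could be resolved.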
